A study of Mus musculus with 11 samples.

Results

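The most abundantly read long non-coding RNA (lncRNA) genes of the mouse cortex were compared between mice with and without the Abi3 gene. Long non-coding RNAs are transcripts longer than most small RNAs that are not translated into protein. A gene was included when the GENCODE annotation gave it the biotype lncRNA, when it lay on an autosome, and when its raw read counts summed to at least 1100 over the 11 animals. The imprinted genes Meg3, Rian and Mirg were left out by rule. This left 49 of 8923 autosomal lncRNA genes in the tables, of which 3363 had any count in all. The rule used only the total count over both genotypes. The comparison of genotypes was not part of it, although results of these data were known when the genes were proposed. The members nearest above the limit were Snhg9 with 1140 reads, E130307A14Rik with 1138 and A830082N09Rik with 1127. The genes nearest below it were B230354K17Rik with 1083 reads, Gm35040 with 1078 and 2210408F21Rik with 1073.

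All animals were female 5xFAD mice of the strain label C57BL/6, aged 8 months. Every mouse carried the 5xFAD transgenes, which are driven by the neuronal Thy1 promoter and lead to amyloid deposits in the brain. The groups were 6 mice with Abi3 intact (Abi3+/+, labelled Abi3 WT) and 5 in which the Abi3 locus on chromosome 11 was deleted in all cells from the germ line (Abi3-/-, labelled Abi3 KO). According to the study's methods the mice of these genotypes were also heterozygous for a Trem2 variant that comes with the SJL background. Mice without the transgenes were not analysed here, so each value describes cortex with amyloid. Abi3 encodes an adaptor of the actin-regulating WAVE complex that is expressed mainly in microglia.

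Some lncRNAs stay in the nucleus and organize it. Malat1 gathers in nuclear speckles, where splicing factors are stored, and Neat1 forms the core of paraspeckles. Others are read across imprinted loci, and many are host transcripts from which microRNAs (miRNAs) or small nucleolar RNAs (snoRNAs) are cut during processing. Several of the miRNAs hosted by the genes described here, such as miR-9, miR-124, miR-137 and miR-138, are known as abundant regulators in neurons or neural progenitors.

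RNA was measured by QuantSeq, which primes reverse transcription with oligo(dT) and reads a tag near the 3′ end of polyadenylated RNA. Reads in genes ranged from 3202310 to 5501958 per animal. Raw Abi3 counts were 10 to 38 in the Abi3+/+ animals and 0 to 2 in the Abi3-/- animals, 4 of which had none. Reads assigned to no gene were 59.3 to 68.8 per 100 reads in genes in Abi3+/+ and 49.8 to 62.5 in Abi3-/- animals. They are called reads outside genes below, although they can include reads in introns or on the opposite strand of a gene. Of the 11 marker lists for cell types of cortex and neighbouring tissue, none held a gene past the threshold, and the summed counts of each list overlapped between genotypes. The 5 oligodendrocyte markers all lay above 0 (median log2 fold change of Abi3-/- against Abi3+/+ 0.17), with sums of 7105 to 9757 normalized counts in Abi3+/+ and 7731 to 10658 in Abi3-/- animals. The 5 striatal neuron markers all lay below it (median -0.18; 1069 to 1582 and 1034 to 1560), as did the 3 blood markers (median -1.21; 25.1 to 324 and 7.91 to 361). Microglial markers summed to 1338 to 1873 normalized counts in Abi3+/+ and 1433 to 1980 in Abi3-/- cortices. Choroid plexus markers, which cortex itself should lack, varied from 59.4 to 3504 and from 85.9 to 2306, and the part of these cell types in the lncRNA values was not tested.

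Of the members, 15 hosted at least 1 annotated miRNA on their own strand, and their mature sequences identify which regulators these host transcripts carry. The sequences are from RefSeq (its table of build GRCm38.p6), written 5′ to 3′ with the seed, bases 2 to 8, in capitals. Of 42 miRNA genes inside members, 34 had an entry. They are grouped here by seeds that more than 1 host shares and by the main brain miRNAs. The seed of miR-344-5p, which A230057D06Rik and A330076H08Rik also share, is not printed.
miR-9-5p (in Gm3764 and Mir9-2hg): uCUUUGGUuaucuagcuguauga
miR-9-3p (in Gm3764 and Mir9-2hg): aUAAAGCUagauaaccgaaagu
miR-138-5p (in 9530059O14Rik and C78859): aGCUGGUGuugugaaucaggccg
miR-100-5p (in Mir100hg): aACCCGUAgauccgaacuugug
miR-99a-5p (in Mir99ahg): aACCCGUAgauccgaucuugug
miR-125b-5p (in Mir100hg and Mir99ahg): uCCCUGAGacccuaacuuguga
let-7c-5p (in Mir99ahg): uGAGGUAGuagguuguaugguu
miR-137-3p (in Gm26871): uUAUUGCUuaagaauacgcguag
miR-29b-3p (in A330023F24Rik): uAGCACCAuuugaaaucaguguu
miR-29c-3p (in A330023F24Rik): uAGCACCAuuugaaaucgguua
miR-344-3p (in A230057D06Rik and A330076H08Rik): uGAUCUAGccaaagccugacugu
The paired hosts lie at separate places in the genome, except A230057D06Rik and A330076H08Rik, whose gene bodies overlap on the same strand of chromosome 7 at the 3′ end of A330076H08Rik, so the counts of this pair are uncertain. Mature miRNAs have no poly(A) tail and were not measured, so the counts given are of reads in the host genes and not of the miRNAs.

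Most of the abundant lncRNA genes had lower counts in Abi3-/- cortices, and 3 of them fell. Of the 49 members, 36 had a log2 fold change below 0 and 13 above it, whereas 44% of the genes given an adjusted p lay below 0. Fold changes compare Abi3-/- with Abi3+/+ animals throughout, so negative values are lower in Abi3-/-. Snhg11, Gm19938 and Gm3764 passed the threshold of an adjusted p of 0.05 (DESeq2, Benjamini-Hochberg over the genes kept by its independent filter), all lower, and no member passed it in the other direction. That is 6.12% of the members. Across all 17626 genes tested, 30 (0.17%) were called lower and 55 (0.312%) higher, or 0.482% in either direction, and 30 were 0.448% of the 6690 genes whose counts were high enough for DESeq2 to give an adjusted p. All 49 members were among those 6690. At an unadjusted p below 0.05, 17 members (34.7%) were lower and 0 higher, while among the 6690 genes 4.35% were lower and 7.28% higher at that level. edgeR, run as an alternative, called Snhg11 and Gm19938 lower, against 0.131% of the genes it tested, and also gave 17 members lower and 0 higher at an unadjusted p below 0.05. The median log2 fold change was -0.10 over the members, -0.0033 over all genes tested and 0.025 over the genes given an adjusted p. In whole cortex, fewer cells that express a transcript and less of it per cell cannot be told apart, and the p-values measure the spread between these 11 libraries.

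**Figure D1:**
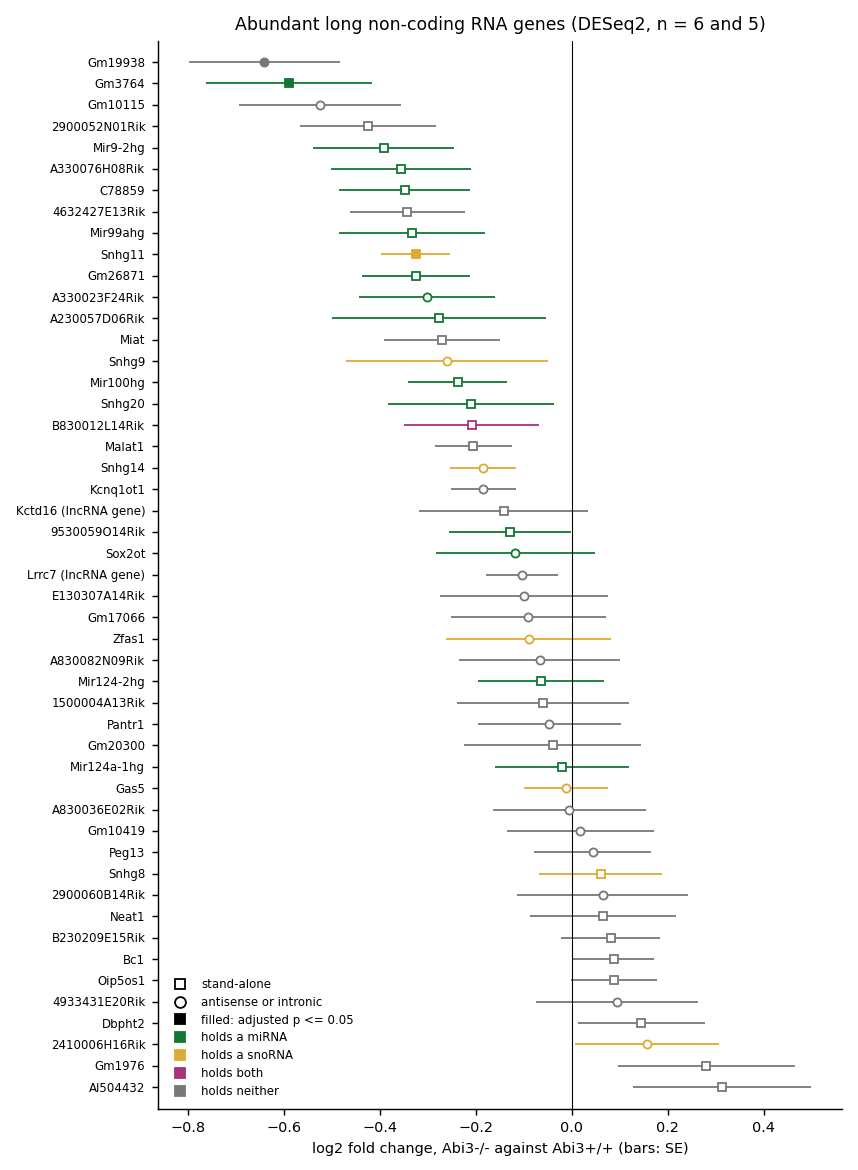
Log2 fold change of each of the 49 lncRNA genes in Abi3-/- (n = 5) against Abi3+/+ (n = 6) animals, with bars for the standard error, marker shape for position relative to coding genes and colour for the small RNAs the gene holds. The filled markers are Gm19938, Gm3764 and Snhg11, and 36 of the markers lie left of 0.

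Snhg11 is a snoRNA host gene read at high levels in neurons (chr2:158217558-158228071, plus strand, GRCm39) and overlaps no protein-coding gene. Its normalized read counts in Abi3+/+ animals ran from 6166 to 7693 with a median of 7371. In the Abi3-/- animals they were 6038, 4840, 5925, 6279 and 5506. Of the Abi3-/- animals, 4 lay below every Abi3+/+ animal, and the fifth overlapped only the lowest of them. Snhg11 fell by 20.2%, a log2 fold change of -0.33 ± 0.072 (SE; DESeq2, adjusted p = 0.00285). The call was kept without any 1 of the 11 animals (adjusted p 3.8e-05 to 0.0228, DESeq2) and with edgeR (adjusted p = 0.0138). It was lost with reads outside genes as a covariate, where the log2 fold change was -0.1 (adjusted p = 1, DESeq2).

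Gm19938 is an unnamed transcript of 2 exons (chr1:3717532-3729127, minus strand) inside the gene body of Xkr4, on the same strand and without shared exon bases, and has no named function. The Abi3+/+ animals had 153 to 210 normalized counts, with a median of 170.1. The Abi3-/- animals had 98.6, 122, 144, 111 and 79.7. It was the only member whose groups did not overlap, which held for 0.658% of the 6690 genes in the lower direction and 1.05% in the higher direction. Gm19938 fell by 35.9% (log2 fold change -0.64 ± 0.16, SE; DESeq2, adjusted p = 0.0105). The adjusted p stayed below the threshold in the 6 fits without 1 animal in which DESeq2 gave it (up to 0.0412). Without Abi3-/- replicate 5 or Abi3+/+ replicate 1, 2, 3 or 6 its count fell under the tool's own filter and no adjusted p was given, with unadjusted p-values up to 0.000526 and log2 fold changes of -0.54 to -0.75 over all 11 such fits.

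Gm3764 hosts miR-9-1, a copy of the neural miRNA printed above, and miR-3093 (chr3:88113033-88137271, plus strand, 12 exons, no overlap with a coding gene). Normalized counts were 97.3 to 168 in the Abi3+/+ animals, with a median of 138. They were 96.5, 95.9, 101, 82.4 and 71.7 in the Abi3-/- animals. Only Abi3-/- replicate 3, at 101, lay inside the Abi3+/+ range, just above its lowest animal. Gm3764 fell by 33.5% (log2 fold change -0.59 ± 0.17, SE; DESeq2, adjusted p = 0.0497). This call sat at the threshold. With the independent filter off, so that p-values were adjusted over all genes tested, it was not called (adjusted p = 0.107, DESeq2). edgeR gave an adjusted p of 0.156, and of the 6 fits without 1 animal that gave an adjusted p only that without Abi3-/- replicate 3 kept it (0.0484; the others 0.0745 to 0.156, DESeq2).

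Gm10115 came next by fold change. It is a gene of 1 exon (chr2:6955264-6956491, minus strand) within Celf2, again on the same strand without shared exon bases, which encodes an RNA-binding splicing factor of neurons. Its counts were 255 to 433 (median 332) in Abi3+/+ and 169, 229, 185, 345 and 237 in Abi3-/- animals. Abi3-/- replicate 4 lay within the Abi3+/+ range and the other 4 below it. The log2 fold change of -0.53 ± 0.17 (SE) did not pass the threshold (DESeq2, adjusted p = 0.0971). It did so without Abi3-/- replicate 4 (log2 fold change -0.71, adjusted p = 0.00284, DESeq2) and without Abi3+/+ replicate 3 (-0.58, adjusted p = 0.0431, DESeq2). The other fits without 1 animal that gave an adjusted p did not call it (0.0653 to 0.255, DESeq2). With reads outside genes as a covariate its log2 fold change turned to 0.097 ± 0.26 (SE).

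**Figure D2:**
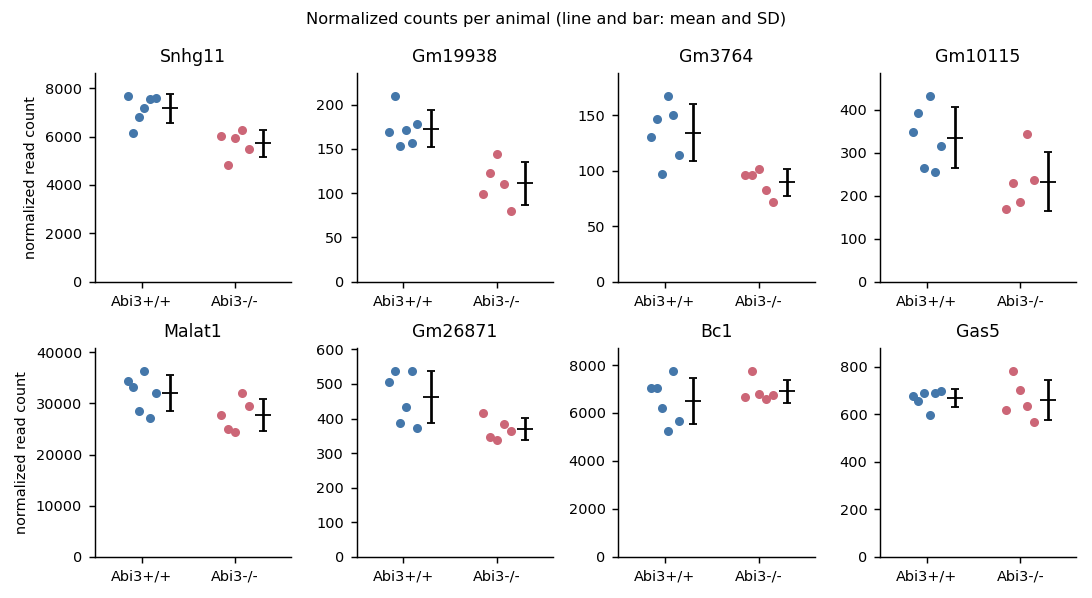
Normalized read counts per animal of 8 lncRNA genes, with the mean and SD of each genotype (Abi3+/+, n = 6; Abi3-/-, n = 5). For Gm19938 the Abi3-/- points (79.7 to 144) lie below every Abi3+/+ point (153 to 210), and for Bc1 and Gas5 the groups overlap.

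Because oligo(dT) primes these libraries, the 3′ ends of the genes named above are shown: the last 60 bases of the annotated main transcript in GRCm39, with a polyadenylation hexamer (AATAAA or ATTAAA) in capitals where there is one.
Snhg11, chr2:158228006-158228065, plus strand: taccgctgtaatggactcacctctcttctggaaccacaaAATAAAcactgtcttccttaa
Gm3764, chr3:88137209-88137268, plus strand: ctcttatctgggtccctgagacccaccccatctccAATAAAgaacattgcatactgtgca
Gm10115, chr2:6955264-6955323, minus strand: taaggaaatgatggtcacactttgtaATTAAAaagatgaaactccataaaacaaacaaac
Gm19938, chr1:3717532-3717591, minus strand: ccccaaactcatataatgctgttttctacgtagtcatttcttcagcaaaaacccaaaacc
Malat1, chr19:5845717-5845776, minus strand: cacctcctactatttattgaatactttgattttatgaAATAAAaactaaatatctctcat
Neat1, chr19:5874736-5874795, minus strand: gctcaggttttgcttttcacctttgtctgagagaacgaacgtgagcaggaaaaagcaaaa
Gm19938 and Neat1 show neither hexamer in these letters. Over the transcripts of all members, 34 of 49 (69.4%) held AATAAA or ATTAAA on the transcribed strand within their last 50 bases, compared to 67.9% of all genes tested and 59.7% of all lncRNA genes tested.

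Oligo(dT) can also anneal to a run of A inside a transcript. Runs of at least 8 A occurred in the main transcript of 19 members (38.8%), compared to 33.3% of all genes tested. Counts per gene do not show where in a gene the reads began, so priming at such a run and at a poly(A) tail cannot be told apart. The stretch around the longest run (capitals) is shown for Gm19938, Gm10115 and Malat1, and the whole of Bc1, a short RNA made by RNA polymerase III that is carried into dendrites, with both of its A-runs in capitals.
Gm19938, chr1:3718485-3718545, minus strand: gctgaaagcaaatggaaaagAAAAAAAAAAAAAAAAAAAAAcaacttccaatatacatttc
Gm10115, chr2:6956351-6956400, minus strand: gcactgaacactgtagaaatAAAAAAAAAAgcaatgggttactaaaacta
Malat1, chr19:5845996-5846047, minus strand: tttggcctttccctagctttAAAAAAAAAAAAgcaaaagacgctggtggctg
Bc1, chr7:144468199-144468374, plus strand: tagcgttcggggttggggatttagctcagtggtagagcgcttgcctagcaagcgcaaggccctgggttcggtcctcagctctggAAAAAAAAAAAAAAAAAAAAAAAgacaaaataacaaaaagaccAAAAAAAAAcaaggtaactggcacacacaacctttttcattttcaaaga
The run in Malat1 belongs to the tail encoded in the genome that remains when RNase P cuts the transcript ahead of a tRNA-like end. The runs are 21 A in Gm19938, 10 in Gm10115 and 12 in Malat1, and the longer run of Bc1 is 23.

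The nuclear architectural RNAs did not pass the threshold. Malat1 took 0.715 to 1.01% of the reads in genes in Abi3+/+ and 0.63 to 0.846% in Abi3-/- animals. Its normalized counts were 27168 to 36452 (median 32692) in Abi3+/+ and 27692, 25084, 24360, 31964 and 29570 in Abi3-/- animals, so the groups overlapped although all 5 Abi3-/- animals lay below the Abi3+/+ mean. The log2 fold change was -0.21 ± 0.08 (SE; DESeq2, unadjusted p = 0.0104, adjusted p = 0.214). With reads outside genes as a covariate it changed sign to 0.096 ± 0.12 (SE). Neat1 had 160 to 266 counts (median 192) in Abi3+/+ and 191, 215, 254, 235 and 150.2 in Abi3-/- animals. Its log2 fold change was 0.065, with a 95% interval of -0.23 to 0.36. Neat1 begins 2598 bases after the coding gene Frmd8 on the same strand, so Neat1 reads and reads past the end of that gene cannot be told apart in these counts. Frmd8 itself stood at 0.86 ± 0.29 (SE; DESeq2, unadjusted p = 0.00323, no adjusted p given). Miat, a nuclear transcript of neurons, had a log2 fold change of -0.27 ± 0.12 (SE; DESeq2, unadjusted p = 0.0254, adjusted p = 0.332). It stood at 0.015 ± 0.21 (SE) with reads outside genes as a covariate.

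Abundant transcripts of the cytoplasm and of growth control did not pass the threshold either. Bc1 had 5240 to 7771 counts (median 6626) in Abi3+/+ and 6646, 7743, 6794, 6578 and 6734 in Abi3-/- animals, all of which lay above the Abi3+/+ mean but inside its range. The log2 fold change of Bc1 was 0.087 with a 95% interval of -0.08 to 0.25. Gas5, a snoRNA host that accumulates when growth stops, had a log2 fold change of -0.012 (interval -0.18 to 0.16). Oip5os1, also known as Cyrano and a partner of miR-7, stood at 0.089 (interval -0.09 to 0.27). None of these intervals reaches the log2 fold change of Snhg11.

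Imprinted transcripts were represented by several members. Kcnq1ot1, the antisense RNA that silences its neighbours on the paternal chromosome 7, had 1927 to 2306 counts (median 2231) in Abi3+/+ and 1916, 2214, 1805, 1861 and 1817 in Abi3-/- animals. Apart from Abi3-/- replicate 2, every Abi3-/- animal lay below the Abi3+/+ range. Its log2 fold change was -0.18 ± 0.067 (SE; DESeq2, unadjusted p = 0.00616, adjusted p = 0.167), and it passed the threshold without Abi3-/- replicate 2 (adjusted p = 0.029, DESeq2) and without Abi3+/+ replicate 6 (0.0347). Snhg14, the long host of the snoRNA clusters of the Prader-Willi locus that runs antisense to Ube3a, differed by nearly the same amount (-0.18 ± 0.069, SE; DESeq2, unadjusted p = 0.00769, adjusted p = 0.186). Peg13, which lies within Trappc9, stood at 0.043 with a 95% interval of -0.2 to 0.28. B830012L14Rik lies in the Meg3-Rian-Mirg region and had a log2 fold change of -0.21 ± 0.14 (SE), beside -0.39 for Meg3 (DESeq2, adjusted p = 0.00342), -0.3 for Rian and -0.36 for Mirg.

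The miRNA hosts were lower as a group of values. All 15 had a log2 fold change below 0, from -0.59 to -0.021, with a median of -0.28, and 8 of them (53.3%) had an unadjusted p below 0.05. Gm3764 alone passed the threshold. With reads outside genes as a covariate, 12 of the 15 were below 0 and the median was -0.16. In each Abi3-/- animal the median of the hosts' log2 counts, taken relative to the Abi3+/+ mean of each gene, was negative: -0.28, -0.32, -0.23, -0.14 and -0.27 in replicates 1 to 5. In the Abi3+/+ animals it lay between -0.1 and 0.092, so the ranges did not overlap. Because the members were chosen with results known, these are descriptions without a test. Of the 46 lncRNA genes below the count limit that were tested and held a miRNA, 28 were below 0, with a median of -0.25, but with the covariate 22 were below 0 and the median turned to 0.13.

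Both abundant hosts of miR-9 had lower counts. Mir9-2hg had 138 to 185 counts (median 178) in Abi3+/+ and 104, 140.4, 142, 139 and 110.4 in Abi3-/- animals, with a log2 fold change of -0.39 ± 0.15 (SE; DESeq2, unadjusted p = 0.00765, adjusted p = 0.186). Mir9-3hg, the remaining miR-9 host, fell short of the count limit and had a log2 fold change of -0.32 ± 0.27 (SE). Hosts of miR-124, a neuronal miRNA, stood close to 0: Mir124a-1hg at -0.021 (95% interval -0.29 to 0.25) and Mir124-2hg at -0.064 (-0.32 to 0.19). Gm26871, which holds the gene of miR-137, had 372 to 539 counts (median 469) in Abi3+/+ and 416, 348, 337, 385 and 364 in Abi3-/- animals. Its log2 fold change was -0.32 ± 0.11 (SE; DESeq2, unadjusted p = 0.00414, adjusted p = 0.136), past the threshold without Abi3+/+ replicate 3 (0.0499) or 6 (0.0286).

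The hosts that share a seed all lay below 0, and differences between them were not tested. C78859, which holds miR-138-2, stood at -0.35 ± 0.14 (SE) and 9530059O14Rik, which holds miR-138-1, at -0.13 ± 0.13. C78859 begins 3799 bases after the coding gene Nup93 on the same strand, so its reads and reads past the end of that gene cannot be told apart in these counts, and Nup93 itself stood at 0.18 ± 0.24. Mir100hg and Mir99ahg, long hosts of paired clusters of miR-100 or miR-99a, let-7 and miR-125b, were at -0.24 ± 0.1 and -0.33 ± 0.15. A330076H08Rik and A230057D06Rik, which hold miR-344 family members on chromosome 7, were at -0.36 ± 0.15 and -0.28 ± 0.22. A330023F24Rik, host of miR-29b-2 and miR-29c, stood at -0.3 ± 0.14. Of these 7 hosts, 5 had an unadjusted p below 0.05 and none an adjusted p at or below 0.05 (DESeq2). Snhg20 with miR-6516 (-0.21 ± 0.17) and Sox2ot with miR-1897 (-0.12 ± 0.17), the transcript that spans the stem cell gene Sox2, completed the group.

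The snoRNA hosts were mixed. Of 8, 6 were below 0 and the median was -0.14, or -0.089 without Snhg11. Apart from Snhg11 and Snhg14, none had an unadjusted p below 0.05. Snhg9 stood at -0.26 ± 0.21 (SE), Zfas1 at -0.089 ± 0.17, Snhg8 at 0.06 ± 0.13 and 2410006H16Rik at 0.16 ± 0.15. Snhg9 has near-identical copies elsewhere in the annotation, as do 1500004A13Rik, Bc1 and Gm1976 (at least 95% identity over at least 100 bases of the last 1000), so the counts of these 4 genes are uncertain.

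Of the 27 members holding neither kind of small RNA, 16 were below 0 with a median of -0.047. The lowest after Gm19938 and Gm10115 were 2900052N01Rik and 4632427E13Rik, neither of which has a named function. The counts of 2900052N01Rik were 173 to 224 (median 181) in Abi3+/+ and 142, 126, 184, 134 and 113 in Abi3-/- animals. All but Abi3-/- replicate 3 lay below the Abi3+/+ range. Its log2 fold change was -0.43 ± 0.14 (SE; DESeq2, unadjusted p = 0.00264, adjusted p = 0.109), past the threshold without that animal (adjusted p = 0.0206). 4632427E13Rik, which starts close to the coding gene Rab30 on the other strand, stood at -0.34 ± 0.12 (SE; DESeq2, unadjusted p = 0.00396, adjusted p = 0.131), past the threshold without Abi3-/- replicate 4 (adjusted p = 0.0339). At the other end were AI504432 at 0.31 ± 0.19, which turned to -0.29 ± 0.32 with reads outside genes as a covariate, and Gm1976 at 0.28 ± 0.18. The former begins 886 bases after the coding gene Kcna3 on the same strand. Reads of AI504432 and reads past the end of Kcna3 cannot be told apart in these counts. Kcna3 itself stood at 1.21 ± 0.88 (SE) on a mean of 4.36 counts. AI504432 had 90.3 to 126 counts (median 112) in Abi3+/+ and 144, 202, 96.7, 97.1 and 147 in Abi3-/- animals, so 3 of the 5 lay above the Abi3+/+ range (DESeq2, unadjusted p = 0.0924, adjusted p = 0.517). Apart from these genes and from Malat1, Miat and Kcnq1ot1, the members without a small RNA lay between -0.14 (the lncRNA gene Kctd16) and 0.14 (Dbpht2), none with an unadjusted p below 0.05.

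The annotation gives 2 members the symbol of a coding gene, which they follow on the same strand. The lncRNA gene Lrrc7 (ENSMUSG00000104597, chr3:157772823-157781749) begins 3811 bases past the coding Lrrc7, a postsynaptic scaffold gene. It held a mean of 1132 normalized counts against 394 for the coding gene, and the log2 fold changes were -0.1 ± 0.075 and -0.26 ± 0.084 (DESeq2, adjusted p = 0.614 and 0.0973). The lncRNA gene Kctd16 (ENSMUSG00000118202) lies 8156 bases past the coding Kctd16, and the values were -0.14 ± 0.18 and 0.075 ± 0.15. Whether these reads belong to longer 3′ ends of the coding transcripts cannot be told apart from separate lncRNA transcripts in counts per gene.

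Antisense or intronic members were then set beside stand-alone ones. A member was antisense (13) when its gene body overlapped a coding gene on the opposite strand only. It was sense-intronic (4) when it overlapped a coding gene on the same strand without sharing exon bases, and sense-exonic (3) when it shared some. The other 29 overlapped no coding gene. The 20 antisense or intronic members had a median log2 fold change of -0.09, with 15 below 0, 5 (25.0%) at an unadjusted p below 0.05 and 1 called. For the 29 stand-alone members the median was -0.21, with 21 below 0, 12 (41.4%) at an unadjusted p below 0.05 and 2 called. With reads outside genes as a covariate the medians were -0.033 for antisense or intronic and -0.12 for stand-alone members. In the reported fit the medians differed by 0.12, a difference that was not tested. Without each animal in turn this difference ran from 0.074 to 0.118. Its SD between animals of the same genotype was 0.059. Shares below 0 were nearly alike, at 75.0% and 72.4%.

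Position and hosting of miRNAs went together. Of the 15 miRNA hosts, 13 stood alone, and the median of those 13 was -0.28. The 16 stand-alone members without a miRNA had 8 below 0 and a median of 0.01. Within the antisense or intronic class the 13 antisense members had a median of -0.047 and the 4 sense-intronic members -0.32, all 4 below 0 and led by Gm19938 and Gm10115. The 3 sense-exonic members had a median of -0.09. Members of at least 10 exons, which overlap the miRNA hosts, had 15 of 16 below 0 and a median of -0.2, and members of 1 exon had 8 of 15 below 0 and a median of -0.04.

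**Figure D3:**
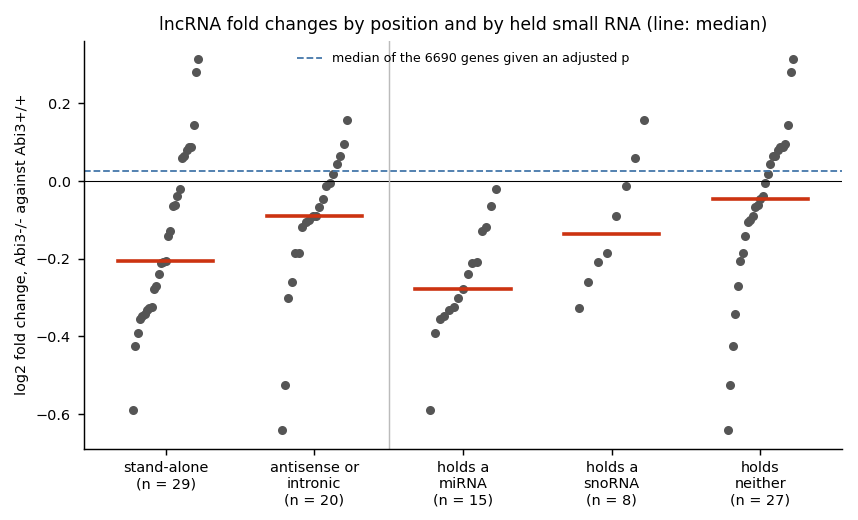
Log2 fold change of each lncRNA gene by position relative to coding genes (left) and by the small RNA it holds (right), each point 1 gene and red lines the medians, with B830012L14Rik drawn under both kinds of small RNA. The miRNA hosts all lie below 0, and the stand-alone and the antisense or intronic genes both spread on either side of it, with medians of -0.21 and -0.09.

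The coding genes that members overlap were examined next, and none passed the threshold. Each antisense or intronic member overlapped 1 or more coding genes. That with the longest overlap was taken from the member's own strand where there was one, and otherwise from the opposite strand. Ube3a, opposite Snhg14, was therefore not taken. Of 20 such genes 17 were tested. None was called in either direction or had an unadjusted p below 0.05 (DESeq2), the median was -0.0068, and 9 of the 17 had the sign of their lncRNA. Xkr4, around Gm19938, had 0.11 ± 0.21 (SE) where the lncRNA had -0.64. Celf2, around Gm10115, had -0.1 ± 0.056 where the lncRNA had -0.53. Both lncRNA genes lie inside these coding genes on the same strand. Their reads and reads from unspliced RNA of Xkr4 or Celf2 cannot be told apart in these counts. Cd46, opposite A330023F24Rik, stood at -0.38 ± 0.31 on few counts, and Gm38393, which shares exon bases with Snhg14, at -0.43 ± 0.27. Across the 17 pairs Pearson's r was 0.045 and Spearman's rho 0.25, a description across genes that share the same animals. Counting used the strand, so antisense reads were kept apart.

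**Figure D4:**
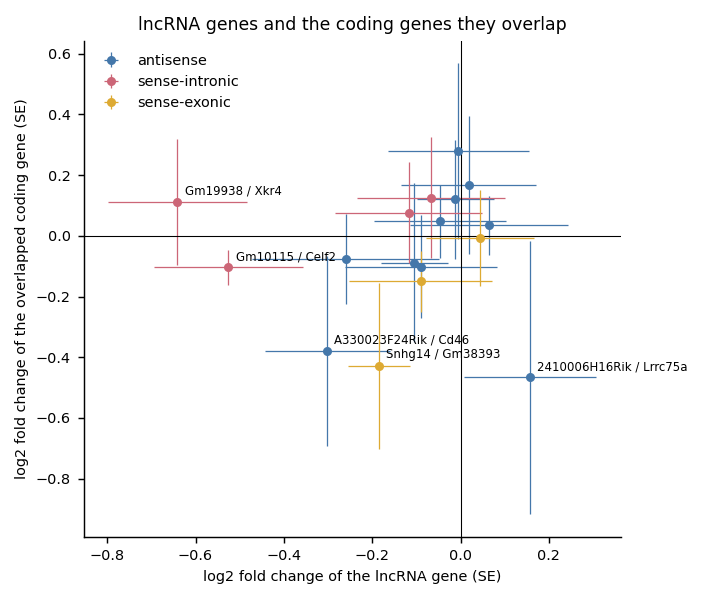
Log2 fold change of 17 overlapped coding genes (vertical) against that of the lncRNA gene that overlaps them (horizontal), with SE bars and colours for the kind of overlap. Gm19938 and Gm10115 lie far to the left, at -0.64 and -0.53, while their coding genes Xkr4 and Celf2 lie at 0.11 and -0.1.

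Proteins that hold, process or degrade lncRNAs were examined by lists. No gene of the 11 paraspeckle proteins, the 13 genes of the nuclear exosome and its cofactors, the 10 nuclear speckle and splicing factors or the 9 writers and readers of m6A passed the threshold in either direction. Their medians were -0.0062, 0.049, -0.14 and 0.072. In the nuclear speckle list, the compartment of Malat1, 9 of 10 genes were below 0. There Srsf11 (-0.22 ± 0.081, SE), Srsf7 (-0.28 ± 0.12), Srrm2 (-0.17 ± 0.075) and Srsf3 (-0.26 ± 0.13) had unadjusted p-values between 0.00589 and 0.0499 and adjusted p-values between 0.161 and 0.429 (DESeq2). The summed counts of that list were 6232 to 7193 in Abi3+/+ and 5691 to 6495 in Abi3-/- animals and overlapped. These 4 genes were picked out by their values.

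The median of the members was lower in each Abi3-/- animal. Relative to the Abi3+/+ mean of each gene, the median of the members' log2 counts was -0.13, -0.2, -0.099, -0.08 and -0.17 in Abi3-/- replicates 1 to 5, and it lay between -0.021 and 0.045 in the Abi3+/+ animals. Between 32 and 34 of the 49 members lay below the Abi3+/+ mean in each Abi3-/- animal. Without Malat1, the members took 0.728 to 0.771% of the reads in genes in Abi3+/+ and 0.642 to 0.689% in Abi3-/- animals, ranges that did not overlap. With Malat1 they took 1.49 to 1.75% and 1.27 to 1.54%, ranges that overlapped. Of the raw reads left without Malat1, Snhg11, which was called lower, held 74415 and Bc1 76286. All lncRNA genes together took 2.75 to 3.23% in Abi3+/+ and 2.25 to 2.84% in Abi3-/- animals, which also overlapped.

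Reads outside genes moved with the members. Abi3-/- replicate 4, with 62.5 reads outside genes per 100 in genes, was the only Abi3-/- animal inside the Abi3+/+ range of that measure, and it had the smallest shift of the members among the Abi3-/- animals (-0.08). Replicate 2 had the fewest reads outside genes (49.8) and the largest shift (-0.2). When this measure was added to the model as a covariate, no member passed the threshold (DESeq2), against 3 genes (0.017%) in the whole table. In that fit 32 members were below 0, the median was -0.066, and 1 member (Kcnq1ot1, at -0.32 ± 0.12, SE) was lower at an unadjusted p below 0.05, as were 2.24% of the 6690 genes, while Gm1976 was higher at that level (0.69 ± 0.32). Snhg11 then stood at -0.1 ± 0.12 (SE), Gm19938 at -0.51 ± 0.3 and Gm3764 at -0.43 ± 0.32, while Malat1 and Gm10115 changed sign to 0.096 and 0.097. The covariate differs between genotypes, and the median SE of the members rose from 0.15 to 0.27 with it, so its part and that of genotype cannot be told apart with these animals.

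**Figure D5:**
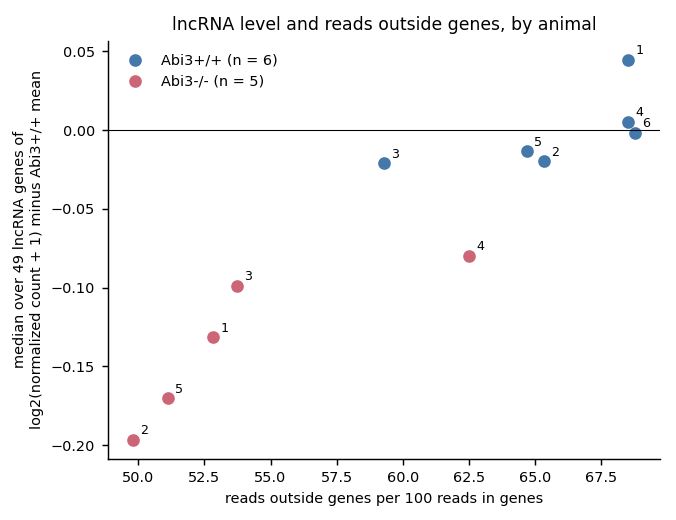
Median over the 49 lncRNA genes of log2(normalized count + 1) minus the Abi3+/+ mean (vertical) against reads outside genes per 100 reads in genes (horizontal), each point 1 animal labelled with its replicate number. The 5 Abi3-/- animals lie between -0.2 and -0.08 and the 6 Abi3+/+ animals between -0.021 and 0.045, with Abi3-/- replicate 4 alone inside the horizontal range of the Abi3+/+ animals.

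Values of the lncRNA genes below the count limit are given for comparison. Of 1320 autosomal lncRNA genes tested there, 734 (55.6%) were below 0, with a median of -0.11, compared to 50.5% of all genes tested and to 43.1% and a median of 0.029 for 6509 protein-coding genes given an adjusted p. With reads outside genes as a covariate, 663 of the 1320 were below 0 and the median was -0.0039. None of them was called (DESeq2), and 76 were lower and 20 higher at an unadjusted p below 0.05. Of the genes just outside the limit, B230354K17Rik stood at 0.42 ± 0.21 (SE), Gm35040 at -0.45 ± 0.22 and 2210408F21Rik at -0.14 ± 0.17.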

How the data were processed

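The deposited values were raw read counts per Ensembl gene, made by the authors from QuantSeq 3′ reads of cerebral cortex. They trimmed adapters and poly(A) with bbduk, aligned with STAR 2.7.3a to GRCm39 and counted with HTSeq 0.9.1 by strand, using only uniquely aligned reads. Their methods mention no removal of PCR duplicates. A count is thus a read rather than a molecule, and its precision covers counting error only. Biotypes, positions and transcripts came from a later GENCODE annotation of the same build. Of 53700 identifiers, 52610 matched and 1090 did not. The tallies of reads outside genes were kept out of library sizes.

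DESeq2 1.42.0 (R 4.3.3) was fitted with genotype as the only term on genes with at least 10 counts in total, as in the study's methods, with results for a base mean of at least 1.5 and Benjamini-Hochberg adjustment with independent filtering over these genes. That filter gave no adjusted p below a mean of 66.6 counts. Normalized counts are counts divided by DESeq2 size factors. Fits were tested on simulated data. Alternatives were edgeR 4.0.16, other size factors and filters, the replicate block, reads outside genes as a covariate, other count limits and class rules, and leaving out each animal. Independent filtering over all fitted genes, before the base mean limit, was added after seeing the data. Near-identical copies were searched with BLAST 2.17.0.

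The members, gene lists and tests were chosen with earlier results of these data known. Named members were those past the threshold, the 10 with the highest counts, up to 15 more by unadjusted p, those without overlap between groups, the hosts of small RNAs and those beside the count limit. Peg13, Neat1, Dbpht2, Pantr1, 1500004A13Rik, Nup93, AI504432, Kcna3, Gm1976, Kctd16, Mir9-3hg, Frmd8, Gm10419, A830036E02Rik and the nuclear speckle genes were named after their values were seen. Replicate numbers come from the titles.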

Additional observations from a re-analysis of the deposited data

Results flagged for a closer look

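In 5 of 98 sets of values (each member in each genotype), 1 animal was set apart from its group by Dixon's test. Chance flags about 1 in 20 such sets, or 4.9 here. Bc1 was high in Abi3-/- replicate 2, at 7743 normalized counts against 6794 in the next animal. Kcnq1ot1 was high in the same animal, at 2214 against 1916, and it passed the threshold without that animal. Pantr1, which lies opposite the neural transcription factor gene Pou3f3, was high in Abi3+/+ replicate 5 at 362.1 against 226.4. 1500004A13Rik was low in that animal at 68.08 against 117.4, and it has a near-identical copy. Sox2ot was high in Abi3-/- replicate 1 at 152.1 against 118.6. The causes were not tested.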

How the results depend on the processing

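No alternative called a member higher, and Snhg11 was called in all 21 alternative fits except that with reads outside genes as a covariate. The number of members called was 3, and 2 or 3 with other size factors, filters or edgeR. It was 0 with the covariate, 1 with a count limit of 2200 and between 1 and 4 without each animal in turn. Snhg11 alone was called without Abi3-/- replicate 5 or Abi3+/+ replicate 1 or 2, fits in which Gm19938 and Gm3764 were given no adjusted p. With a limit of 2200 the members' median was -0.1567 instead of -0.10, and with the covariate the class medians were -0.03307 (antisense or intronic) and -0.1161 (stand-alone). Genes called in the whole table numbered 85, but 44 with edgeR, 54 with library totals as size factors, 35 with the replicate block, 3 with the covariate, 95 with filtering over all fitted genes and 45 to 120 without each animal.

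The replicate numbers were not taken to pair the animals, since deviations of same-numbered animals correlated by -0.0198 to 0.123. With the replicate number as a block (10 animals), 2 members were called, Snhg11 and Gm10115 (adjusted p = 0.032, DESeq2), while Gm19938 was given no adjusted p (-0.65, unadjusted p = 0.000786, DESeq2).

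With the covariate some members changed sign, including some of the larger differences such as Gm10115 (-0.53 in the reported fit) and A330023F24Rik (-0.30). The log2 fold changes were then 0.09556 (Malat1), -0.0662 (Bc1), -0.1161 (Oip5os1), 0.01478 (Miat), 0.09694 (Gm10115), 0.04248 (A330023F24Rik), -0.02721 (2410006H16Rik), 0.09743 (Mir124a-1hg) and 0.08817 (Snhg20), and -0.29 for AI504432, -0.36 for Gm10419, -0.14 for Peg13 and 0.36 for A830036E02Rik. With the block Mir124a-1hg stood at 0.0004992. Without each animal in turn Gas5 ran from -0.08221 to 0.0396, Mir124a-1hg from -0.07923 to 0.04453, Snhg8 from -0.005462 to 0.1324 and Zfas1 from -0.1547 to 0.006421. The median SE of the members was 0.15 at this depth and number of animals. A member of that SE needed a difference well above it to pass the threshold. Gm3764, which sat at the threshold, stood at -0.59 ± 0.17 (SE; DESeq2, adjusted p = 0.0497).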
